A study of Homo sapiens with 12 samples.

Results

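The AP-1 and immediate early genes examined here are the Fos genes FOS, FOSB, FOSL1 and FOSL2, the Jun genes JUN, JUNB and JUND, the ATF family gene ATF3, and EGR1. They were chosen by name from the family to which each belongs, by a rule that uses no expression value but with results of these data already known, and all 9 were found by Ensembl identifier among the 17013 genes of the expression table. AP-1 is a dimer of basic leucine zipper proteins in which a Jun protein pairs with another Jun, a Fos or an ATF protein and binds short DNA elements near its target genes. JNK phosphorylates the Jun proteins, while ERK and the ternary complex factors act with serum response factor on the promoters of FOS and EGR1, so these genes are rapid transcriptional readouts of MAP kinase activity. In breast carcinoma of basal type, FOSL1 (Fra-1) is known as a driver of invasive gene expression, whereas ATF3 and JUN are typical stress genes that DNA damage induces.

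Expression was measured by mRNA-seq in HCC1806 cells, a human triple-negative breast cancer (TNBC) line. Cells received a non-targeting siRNA (siNT) or a pool of 4 siRNAs against MLK4 (siMLK4), and then either vehicle or 1 μM doxorubicin, a topoisomerase II poison that breaks DNA, for 24 h. MLK4 is a mixed-lineage kinase of the MAP3K family and is encoded by MAP3K21. The 4 groups were siNT with vehicle, siNT with doxorubicin, siMLK4 with vehicle and siMLK4 with doxorubicin, each with 3 libraries. The sources describe the vehicle cells differently. The labels and the study's supplement give DMSO, the latter for 24 h like the drug, whereas the short sample names place these cells at time 0 and the methods call them untreated. All groups share 1 cell line and transient transfection, which the methods describe as done in triplicate. Whether the triplicates were separate experiments is not stated, so p-values measure the spread between these libraries, which may be technical. In bulk RNA a lower level in fewer cells and a lower level in every cell cannot be told apart.

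The libraries held 16759025 to 19302248 reads on genes. Values are given as normalized reads, that is, reads divided by the size factor of the library, and levels of different genes are compared per kb of annotated exon. Fold changes are differences on the deposited variance-stabilized scale, which is close to log2 for abundant genes and compresses the changes of genes with few reads. For FOS and FOSB the ratio of mean normalized reads therefore stands beside the fold change. In limma, calls required a fold change beyond 0.75 on the log2 scale in either direction together with a Benjamini-Hochberg adjusted p below 0.01, where the adjustment covered all 17013 genes.

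MAP3K21 checked the siRNA labels in every library. It lay between 553.1 and 856.1 normalized reads in the siNT libraries and between 88.65 and 138.4 in the siMLK4 libraries, so that siMLK4 cells retained 15.1% of its mRNA in vehicle and 14.5% with doxorubicin. Markers of basal epithelium were abundant, while the markers of luminal cells were mixed. KRT5, the most abundant of 8 measured basal and squamous markers, had 20900 ± 3210 normalized reads in siNT vehicle cells (SD, n = 3). PGR, the progesterone receptor, was at 0 reads in every vehicle library, a count that allows up to 3 reads each, and ESR1, the estrogen receptor, had 92.7 ± 18 in siNT vehicle cells, against 1460 ± 171 for ERBB2 and 1300 ± 165 for GATA3. The 2 measured immune markers, of which CD14 was the most abundant, summed to 12.92 to 64.21 normalized reads per library, and the 3 measured fibroblast markers, led by COL1A1, to 281.9 to 833.5.

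The 4 siRNAs are shown because 7-base stretches of their guide strands could also pair with the mRNAs described below. Sense strands are written 5′ to 3′, with the stretch that pairs with the guide seed in capitals, and the 19 bases before the overhang matched coding sequence of MAP3K21 on the + strand of GRCh38 in exons 9, 5, 9 and 7, respectively.
siMLK4 #1, chr1:233379030-233379048: ggaaagaugcuCAGAGAGauu
siMLK4 #2, chr1:233362204-233362222: aggagaagcccAAGGUAAauu
siMLK4 #3, chr1:233379276-233379294: agaagaaacgaGAGGGAAuuu
siMLK4 #4, chr1:233376047-233376065: agaacagauugCAAAGAAauu
At least 1 of these 4 words occurs in the annotated 3′UTR of 7 of the 9 genes, against 44.3% of 13583 coding genes with a 3′UTR. The word of siMLK4 #1 occurs at 2 places in FOS and at 1 place each in FOSB, JUN and JUND. The word of siMLK4 #4 occurs once in ATF3, once in EGR1 and 3 times in FOSL2, which also holds 1 match to siMLK4 #2. FOSL1 and JUNB hold no match to any of the 4 words. Whether such pairing contributed to a level was not tested.

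Promoter stretches of 5 genes are shown as examples of matches to elements known for AP-1, CREB or serum response factor, whether or not the gene responded to the drug. RefSeq windows of 250 bases before and 50 bases after a start site matched 8 of the 9 genes, all but FOSL1, in 9 windows. The 70 bases from −110 to −41 are printed on the strand of the gene (GRCh38.p14), with motif matches in capitals.
FOS, chr14:75278718-75278787, + strand: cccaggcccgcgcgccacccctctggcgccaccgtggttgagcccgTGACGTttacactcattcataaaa
FOSB, chr19:45467886-45467955, + strand: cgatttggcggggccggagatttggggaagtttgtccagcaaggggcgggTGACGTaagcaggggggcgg
FOSL2, chr2:28392748-28392817, + strand: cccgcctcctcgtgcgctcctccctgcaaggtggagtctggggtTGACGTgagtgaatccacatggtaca
JUN, chr1:58784088-58784157, − strand: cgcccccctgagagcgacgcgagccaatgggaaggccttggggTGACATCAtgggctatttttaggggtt
EGR1, chr5:138465369-138465438, + strand: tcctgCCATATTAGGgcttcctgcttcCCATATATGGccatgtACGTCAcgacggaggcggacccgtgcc
The core of the cyclic AMP response element, TGACGT on either strand, begins at −64 in FOS, −60 in FOSB, −66 in FOSL2, −67 and −136 in EGR1 and −87 in JUND, and it is held by 7.98% of all 35116 windows. JUN holds TGACATCA at −67 and ATF3 holds it at −123 in 1 of its 2 windows, the other of which holds none of the motifs, against 2.61% of all windows. EGR1 has 2 CArG boxes, the element of serum response factor, at −105 and −83, against 1.29% of windows with any. JUND holds TGACGTCA, which contains TGACGT, at −200 (1.85% of windows), FOSL2 holds TGACTCA just after its start site (4.95%), and the EGR1 element GCGGGGGCG (5.07%) was in none of the 9 windows. These are matches of letters and were not tested as binding sites.

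Replicate libraries stood apart in both vehicle groups. The siNT vehicle replicate 1 and the siMLK4 vehicle replicate 3 differed from their partners by a chi-square per degree of freedom of 29.5 to 60.4, against 16.6 and 10.3 between the remaining 2 libraries of each group. In both libraries short genes lay above and long genes below their group means. The median deviation of the 1055 genes of at most 1740 bases exceeded that of the 1055 genes of at least 8210 bases by 0.42 and 0.49 on the log2 scale. Deviations of the opposite sign and like size were seen in siNT vehicle replicate 3 (−0.37) and siMLK4 vehicle replicate 1 (−0.41). Leaving out both libraries, a step added after seeing the data, left the number of the 9 genes called at 5, 5, 4 and 1 in the pairwise comparisons described below.

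In siNT vehicle cells the most abundant mRNAs per kb were JUNB (1370 ± 444 normalized reads per kb, SD, n = 3) and FOSL1 (1200 ± 65.9), whose ranges overlap. FOSL2 followed at 416 ± 66.2. JUND (276 ± 126) and JUN (241 ± 36.4) had lower means and did not differ from each other beyond their spread, nor did EGR1 (145 ± 24.5) and ATF3 (139 ± 73.1). FOS (12.9 ± 2.77) and FOSB (6.16 ± 0.877) were the least abundant. With the length of the longest transcript in place of the exon union, ATF3 stood at 264 and level with JUND and JUN. JUNB, FOSL1 and FOSL2 were thus the most abundant of the AP-1 mRNAs compared here in siNT vehicle cells. Other leucine zipper genes were not ranked per kb.

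With doxorubicin in siNT cells, 5 of the 9 genes were called, against 22.7% of all genes. FOS, FOSB, JUN and ATF3 were higher (12.1% of all genes were called higher) and FOSL1 was lower (10.6% were called lower). In siMLK4 cells 5 of 9 were also called, all of them higher, namely FOS, FOSB, JUN, ATF3 and EGR1 (23.2% of all genes called, 12.6% higher and 10.6% lower). MLK4 depletion in vehicle was accompanied by lower FOS, FOSL1, JUN and EGR1, that is, 4 of 9, where 5.65% of all genes were called, 2.51% higher and 3.14% lower. With doxorubicin FOSL1 alone was called between the siRNA groups, 1 of 9 against 5.58% of all genes (2.66% higher and 2.93% lower). The interaction, which is the doxorubicin response in siMLK4 cells minus that in siNT cells, was called for EGR1 alone, 1 of 9 against 0.276% of all genes. These comparisons share groups, so a deviation of 1 group moves each comparison that uses it.

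**Figure D1:**
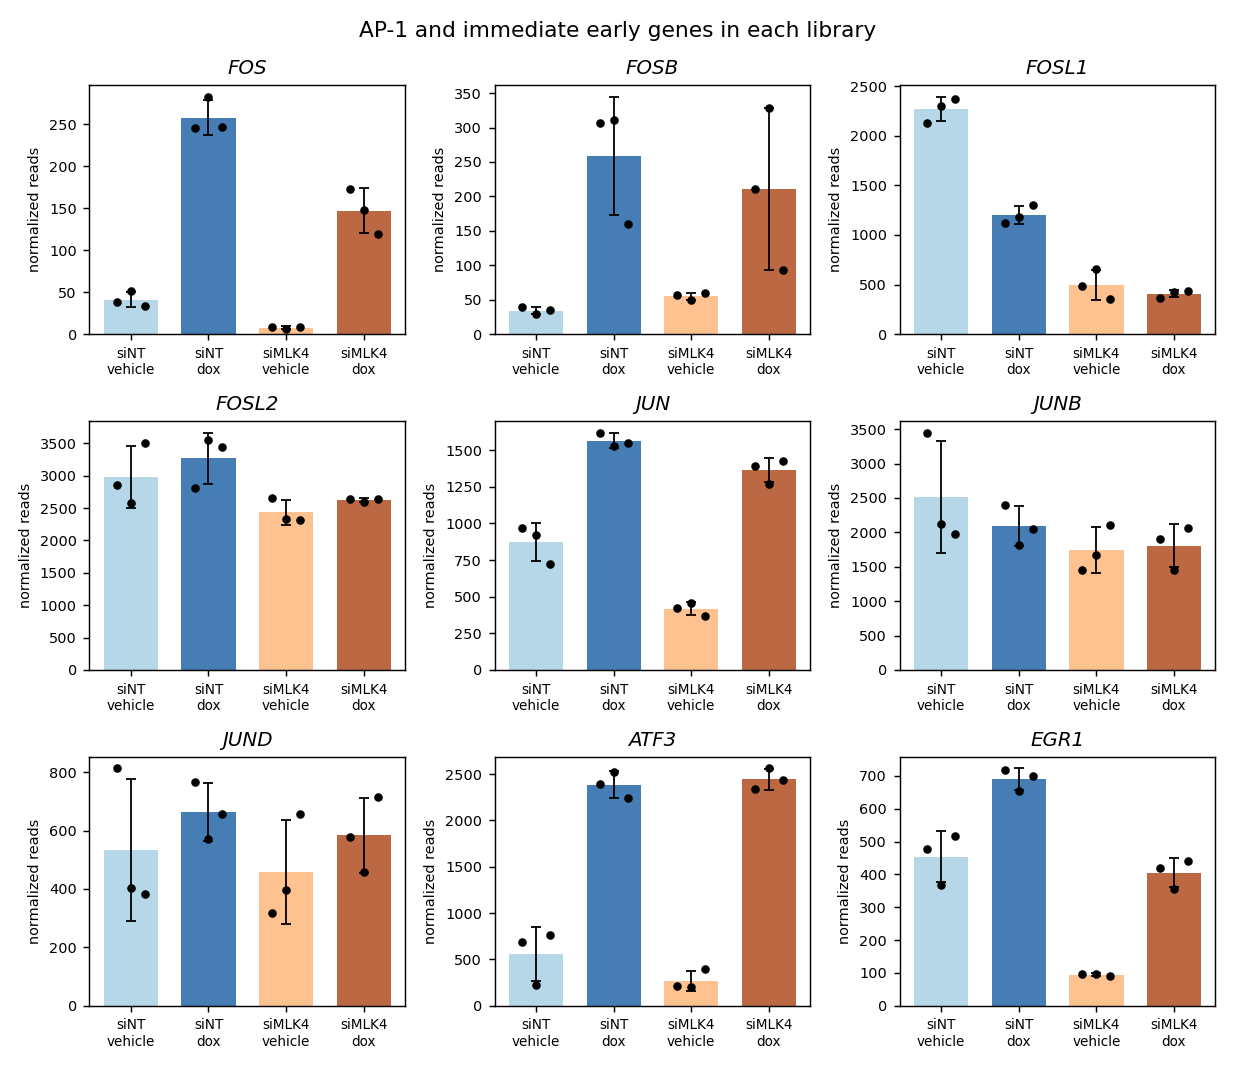
Normalized reads (y axis, linear, from 0, with a separate scale for each gene) of the 9 genes in the 12 libraries. Bars are group means, error bars are SD and points are the 3 libraries of a group; FOS in siMLK4 vehicle cells sits between 5.98 and 9.02, and ATF3 lies between 2240 and 2560 in every doxorubicin library of both siRNA groups.

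FOS (ENSG00000170345, chr14:75278826-75282230, + strand, GRCh38) is the classic immediate early gene and the partner with which JUN forms the best known AP-1 dimer. Its mRNA had 38.75, 50.87 and 33.68 normalized reads in siNT vehicle cells and 245.5, 283.0 and 246.4 with doxorubicin. In siMLK4 cells it had 9.017, 5.978 and 8.649 in vehicle, which rest on 9, 6 and 8 reads, and 173.0, 148.4 and 119.8 with doxorubicin. The 4 groups did not overlap, and their order was siNT doxorubicin, siMLK4 doxorubicin, siNT vehicle and siMLK4 vehicle. Doxorubicin raised FOS 6.28-fold in siNT cells (log2 fold change 1.84, SE 0.13, adjusted p = 9.9e-08 in limma) and 18.7-fold in siMLK4 cells (2.09, adjusted p = 4.9e-08). In vehicle, siMLK4 cells held 19.2% of the siNT level, a called difference (−0.91, adjusted p = 0.00019). It was 56.9% with doxorubicin, where the fold change of −0.66 (adjusted p = 0.002) missed the fold threshold. That difference was called without siMLK4 doxorubicin replicate 1 (−0.75) and with limma-voom on the recovered reads (−0.82). The interaction was 0.25 (adjusted p = 0.59) on the compressed scale, 1.42 (adjusted p = 0.045) on log2(normalized reads + 1) and 1.5 (adjusted p = 0.092) with limma-voom, and was not called on any of these scales.

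FOSB (ENSG00000125740, chr19:45467995-45475179, + strand), a second inducible Fos gene whose locus overlaps ERCC1 on the opposite strand, had 38.75, 29.07 and 34.80 normalized reads in siNT vehicle cells and 56.11, 49.82 and 59.46 in siMLK4 vehicle cells. With doxorubicin it had 306.4, 310.5 and 160.2 in siNT cells and 210.3, 328.5 and 93.45 in siMLK4 cells. Each doxorubicin library lay above each vehicle library of the same siRNA, while the doxorubicin groups overlapped widely and replicate 3 was lowest in both. The increase was 7.57-fold in siNT cells (log2 fold change 1.93, SE 0.28, adjusted p = 4.6e-05 in limma) and 3.82-fold in siMLK4 cells (1.25, adjusted p = 0.0015). In vehicle siMLK4 cells held 161% of the siNT level without overlap of the libraries, but the difference was not called (0.37, adjusted p = 0.36). FOSB was thus the one Fos gene whose vehicle level did not have a negative siMLK4 value. Neither the doxorubicin difference between siRNA groups (−0.32, adjusted p = 0.44) nor the interaction (−0.69, adjusted p = 0.47) was called.

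FOSL1 (ENSG00000175592, chr11:65892049-65900573, − strand) encodes Fra-1, a Fos protein without a transactivation domain of its own. It had 2131, 2302 and 2373 normalized reads in siNT vehicle cells, against 480.9, 651.6 and 353.5 in siMLK4 vehicle cells. With doxorubicin it had 1123, 1181 and 1306 in siNT cells and 368.0, 421.9 and 437.3 in siMLK4 cells. All siMLK4 libraries lay below all siNT libraries, and the siMLK4 groups overlapped each other. MLK4 depletion lowered FOSL1 to 21.8% of the siNT mean in vehicle (log2 fold change −2.12, SE 0.16, adjusted p = 8.4e-07 in limma) and to 34% with doxorubicin (−1.45, adjusted p = 2.7e-05). Doxorubicin lowered it to 53% in siNT cells (−0.89, adjusted p = 0.00028), and it stood at 82.6% in siMLK4 cells (−0.21, adjusted p = 0.26). The siNT decrease was not called with library totals (−0.65) or upper-quartile scaling (−0.74) in place of the authors' size factors. The difference between the responses was 0.67 (adjusted p = 0.16) and was not called.

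FOSL2 (ENSG00000075426, chr2:28392448-28417317, + strand), which encodes Fra-2, was the most even of the Fos genes. It had 2860, 2579 and 3504 normalized reads in siNT vehicle cells and 2811, 3553 and 3437 with doxorubicin, against 2657, 2331 and 2309 and then 2641, 2594 and 2635 in siMLK4 cells. The siMLK4 doxorubicin libraries lay below all siNT doxorubicin libraries, and the siRNA groups in vehicle and both drug comparisons overlapped. No comparison was called, with log2 fold changes of 0.13 and 0.11 for doxorubicin in siNT and siMLK4 cells and of −0.28 and −0.30 for siMLK4 in vehicle and with doxorubicin (adjusted p = 0.38, 0.47, 0.12 and 0.092 in limma). The 95% interval of the doxorubicin difference between siRNA groups ran from −0.57 to −0.04.

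Set against each other per kb of exon, the 4 Fos genes differed between groups in total and in make-up. Their summed level was 1640 ± 112 normalized reads per kb in siNT vehicle cells, 1220 ± 88.2 in siNT doxorubicin cells, 615 ± 81.9 in siMLK4 vehicle cells and 667 ± 21.1 in siMLK4 doxorubicin cells (SD, n = 3). FOSL1 made up 73.5 ± 2.48% of this sum in siNT vehicle cells and 52.2 ± 2.5% with doxorubicin, and 42.1 ± 7.68% and 32.5 ± 2.86% in the corresponding siMLK4 groups. FOSL2 made up 55.8 ± 7.21% and 54.9 ± 2.23% in siMLK4 cells, against 25.3 ± 2.65% and 37.3 ± 2.07% in siNT cells. In siMLK4 vehicle cells the shares of FOSL1 (35.8 to 50.7%) and FOSL2 (47.7 to 61.6%) overlapped. FOS and FOSB were the smallest parts in every group. The share of FOS went from 0.794 ± 0.199% to 6.65 ± 0.522% with doxorubicin in siNT cells, and its siMLK4 shares were 0.412 ± 0.125% and 6.92 ± 1.27%, so that the shares with doxorubicin overlapped between the siRNA groups. Shares within a group of 3 libraries are descriptions, since an exact permutation test of 3 against 3 cannot give a p under 0.1.

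**Figure D2:**
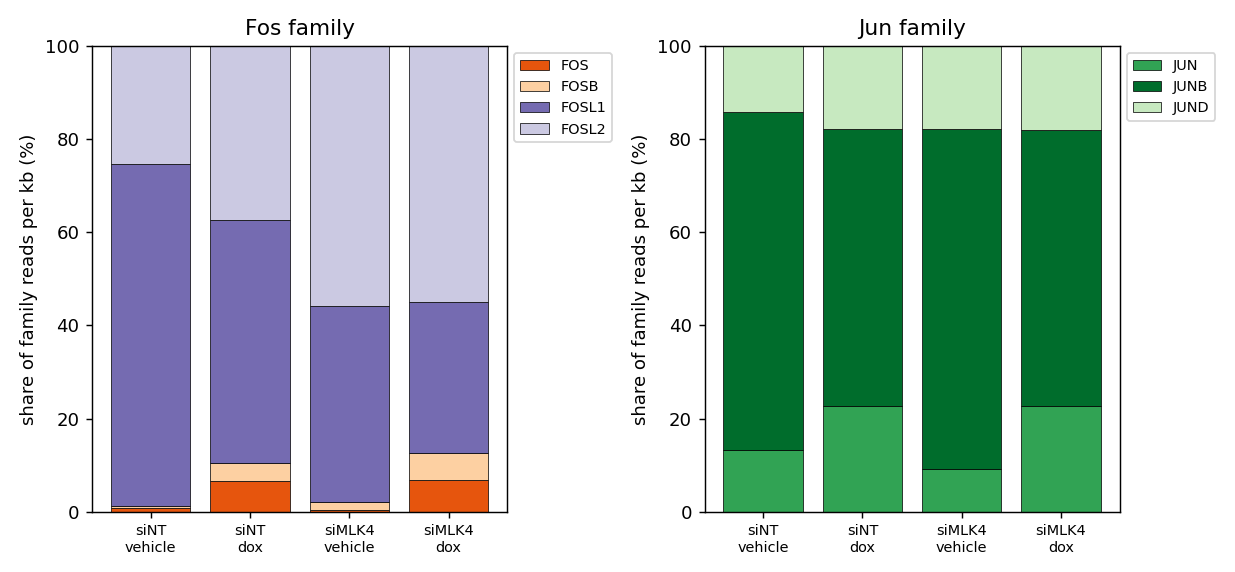
Mean share (y axis, % of the summed normalized reads per kb of exon of the family) of each Fos gene (left) and Jun gene (right) in the 4 groups, 3 libraries each. FOSL1 goes from 73.5% of the Fos family in siNT vehicle cells to 32.5% in siMLK4 doxorubicin cells, and JUN takes 22.7% and 22.8% of the Jun family with doxorubicin in siNT and siMLK4 cells.

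JUN (ENSG00000177606, chr1:58776845-58784048, − strand, a single exon) encodes c-Jun, the direct substrate of JNK, which activates its own promoter through a TGACATCA element like the one printed above. It had 972.3, 921.9 and 723.0 normalized reads in siNT vehicle cells and 1620, 1526 and 1552 with doxorubicin. In siMLK4 cells it had 422.8, 457.3 and 369.7 in vehicle and 1392, 1271 and 1429 with doxorubicin. All 4 groups were apart, although the doxorubicin groups only narrowly. In vehicle, siMLK4 cells held 47.8% of the siNT level (log2 fold change −0.97, SE 0.12, adjusted p = 5.2e-05 in limma) and 87.1% with doxorubicin, a difference that was not called (−0.19, adjusted p = 0.25). Doxorubicin raised JUN 1.8-fold in siNT cells (0.82, adjusted p = 4.9e-05) and 3.27-fold in siMLK4 cells (1.60, adjusted p = 1.9e-07). The siNT increase was 0.70 and not called without siNT vehicle replicate 3. The interaction of 0.78 had an adjusted p = 0.036 and was not called. Its adjusted p was 0.056 with library totals, 0.06 with upper-quartile scaling and between 0.014 and 0.12 when 1 library was left out. The interaction was called (adjusted p = 0.0049) when the length deviation of each library entered the fit as a covariate, an alternative added after seeing the data.

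JUNB (ENSG00000171223, chr19:12791486-12793315, + strand) and JUND (ENSG00000130522, chr19:18279694-18281622, − strand) are the other Jun genes, both of a single exon, and their proteins are weaker activators that can oppose c-Jun. JUNB had 3449, 2125 and 1971 normalized reads in siNT vehicle cells, 2398, 1821 and 2044 in siNT doxorubicin cells, 1450, 1670 and 2106 in siMLK4 vehicle cells and 1899, 1457 and 2064 in siMLK4 doxorubicin cells. JUND had 812.6, 402.8 and 381.7, then 767.8, 570.1 and 655.0, then 316.6, 396.6 and 657.3, and then 577.5, 456.9 and 714.9 in the same groups. Neither gene separated any pair of groups compared, and none of their comparisons was called. The JUNB values of the pairwise comparisons ranged from −0.49 for siMLK4 in vehicle (adjusted p = 0.089 in limma) to 0.05 for doxorubicin in siMLK4 cells, and the JUND values from −0.18 to 0.36. The interaction of JUNB was 0.28 (adjusted p = 0.73). Within each vehicle group both genes were highest in siNT vehicle replicate 1 and siMLK4 vehicle replicate 3, the libraries with the highest deviation of short genes. With that deviation as a covariate, JUNB in siMLK4 vehicle cells stayed at −0.49 with an adjusted p = 0.00042, still under the fold threshold. JUNB took 72.6 ± 0.954% and 73.1 ± 0.828% of the Jun family per kb in siNT and siMLK4 vehicle cells and 59.4 ± 1.33% and 59.1 ± 1.43% with doxorubicin, while JUN went from 13.2 ± 2.63% and 9.14 ± 2.4% to 22.7 ± 1.93% and 22.8 ± 2.3%.

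ATF3 (ENSG00000162772, chr1:212565334-212620777, + strand) encodes a stress-induced factor that represses as a homodimer and can activate as a dimer with c-Jun. It had 685.8, 220.1 and 758.9 normalized reads in siNT vehicle cells and 208.4, 197.3 and 395.7 in siMLK4 vehicle cells. With doxorubicin it reached 2395, 2525 and 2237 in siNT cells and 2335, 2560 and 2431 in siMLK4 cells. The doxorubicin libraries lay far above all vehicle libraries and overlapped each other, and siNT vehicle replicate 2 lay among the siMLK4 vehicle libraries. ATF3 rose 4.3-fold in siNT cells (log2 fold change 2.16, SE 0.32, adjusted p = 5.8e-05 in limma) and 9.14-fold in siMLK4 cells (3.02, adjusted p = 3.2e-06). These were the largest doxorubicin fold changes of the 9 genes on the variance-stabilized scale. The siNT rank was not stable, since leaving out 1 library took ATF3 as low as 1.65, while FOS and FOSB stayed at 1.77 and 1.8 or more. By the ratio of mean normalized reads, FOSB (7.57) and FOS (6.28) rose more than ATF3 in siNT cells, as did FOS (18.7) in siMLK4 cells. With doxorubicin the siMLK4 level of ATF3 was 102% of the siNT mean, with a log2 fold change of 0.03 and a 95% interval from −0.65 to 0.72. In vehicle it was 48.1%, which was not called (−0.83, adjusted p = 0.069) but was called without siNT vehicle replicate 2 (−1.34, adjusted p = 0.00065). The interaction was 0.87 (adjusted p = 0.41).

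EGR1 (ENSG00000120738, chr5:138465479-138469303, + strand) is a zinc finger factor outside AP-1 that responds to ERK through the CArG boxes of its promoter. Its mRNA had 476.7, 368.6 and 517.5 normalized reads in siNT vehicle cells and 717.0, 654.5 and 699.6 with doxorubicin. In siMLK4 cells it had 98.19, 95.65 and 89.73 in vehicle and 418.9, 355.2 and 440.9 with doxorubicin. The siMLK4 doxorubicin libraries overlapped only the siNT vehicle libraries, and the remaining groups were apart. MLK4 depletion lowered EGR1 to 20.8% of the siNT mean in vehicle (log2 fold change −1.81, SE 0.12, adjusted p = 5.7e-07 in limma), and with doxorubicin siMLK4 cells held 58.7% of the siNT level (−0.70, adjusted p = 0.00098), which missed the fold threshold. That difference was called with limma-voom (−0.78), with log2(normalized reads + 1) (−0.77) and without siMLK4 doxorubicin replicate 3 (−0.76). Doxorubicin raised EGR1 4.28-fold in siMLK4 cells (1.67, adjusted p = 1.9e-07). In siNT cells the ratio was 1.52 (0.56, adjusted p = 0.0014), also short of the fold threshold, although library totals as scaling gave a called 0.78. The response was greater in siMLK4 cells by 1.10 (SE 0.18, adjusted p = 0.0074), which was called. This call was kept without siNT vehicle replicate 2 (1.23, adjusted p = 0.0044) and lost without any 1 of the other 11 libraries, where the value lay between 1.01 and 1.19 and the adjusted p between 0.013 and 0.036.

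**Figure D3:**
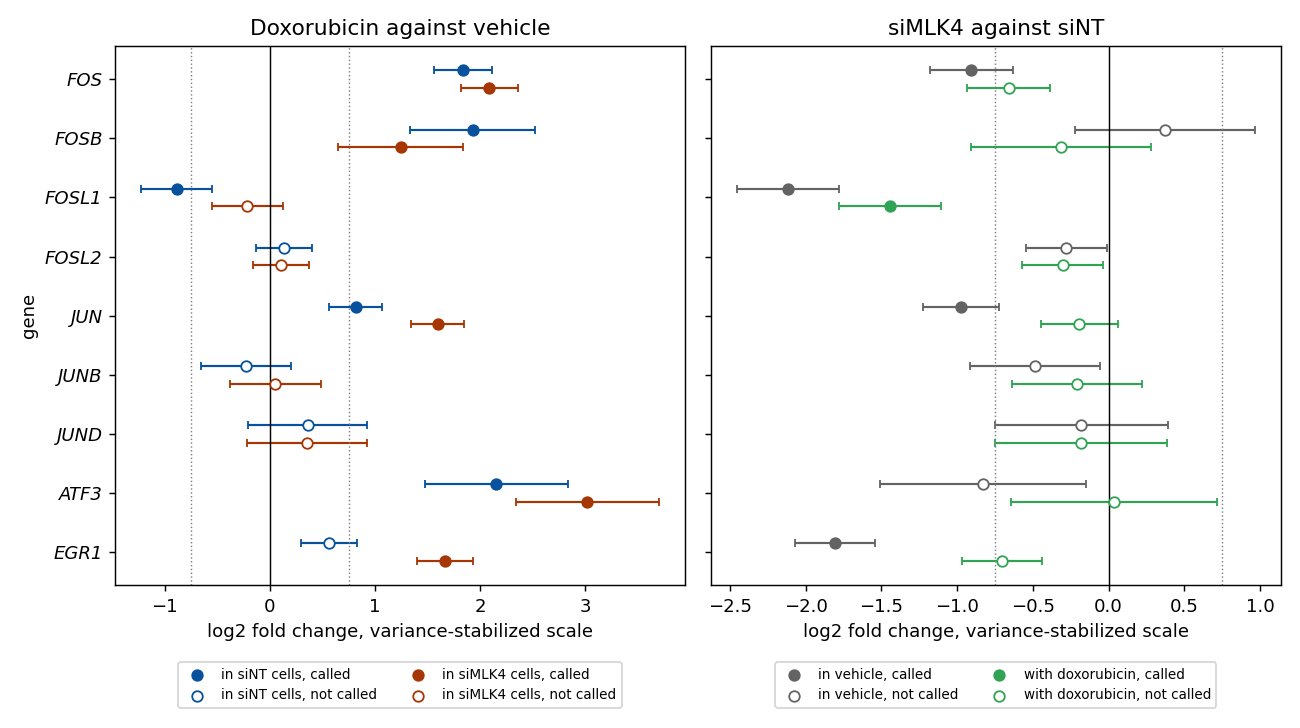
Log2 fold changes (x axis, variance-stabilized scale) of the 9 genes for doxorubicin against vehicle (left) and siMLK4 against siNT (right), with 95% intervals from limma. Filled points passed both thresholds, dotted lines mark ±0.75; on the right, EGR1 stands at −1.81 in vehicle and −0.70 with doxorubicin, FOSL1 at −2.12 and −1.45, and JUN at −0.97 and −0.19.

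Over the 12 libraries FOS and JUN had a Pearson correlation of 0.96 on the variance-stabilized scale, JUN and EGR1 0.91, and FOS and ATF3 0.91. FOSL1 moved apart from FOS, with 0.08. JUNB and JUND had 0.72 with each other. These values describe libraries that share treatments, depth and length deviation. Among 10548 coding genes with a mean of at least 100 normalized reads, the genes most like FOS were C6orf89 (0.992), COG4 and TNFRSF1B (0.991 each), and those most like FOSL1 were PLA2G4E (0.99), NCBP2 (0.986) and ERLIN1 (0.984). EGR1 was most like CYB5B (0.979), JUN most like C11orf24 (0.975), FOSB most like BSDC1 (0.968) and FOSL2 most like THAP6 (0.936). For ATF3 the closest were TRAPPC6B, OGFRL1 and PMAIP1 (0.981 each), of which PMAIP1 encodes the BH3-only protein NOXA. JUNB was most like NXT1 (0.958) and JUND most like CSRP2 and CSNK2B (0.963 each).

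Genes that act on AP-1 were listed by role, with earlier results of these data known, and their counts are read against the shares of all genes. Of 29 measured kinases and activators, doxorubicin lowered 3 in both siNT and siMLK4 cells, close to the 10.6% of all genes lower in each. These were MAP2K6, a kinase that activates p38 (log2 fold change −1.58 and −2.38), MAP2K7, a kinase that activates JNK (−1.16 and −1.33), and MAP3K20, the stress kinase ZAK (−1.10 and −0.90). MAPK7, which encodes ERK5, was called higher in siMLK4 cells (0.75, adjusted p = 0.0014 in limma), where 12.6% of all genes were higher. In that comparison limma-voom called 3 of the 29 higher, beside 18.3% of all genes, and library totals as scaling 5, beside 17% of all genes. Between siRNA groups in vehicle, MAP2K6 was higher in siMLK4 cells (1.43), at 334 ± 40 against 96.5 ± 31.3 normalized reads, and ELK4, a ternary complex factor, was lower (−0.94), so that 2 of 29 were called beside 5.65% of all genes. With doxorubicin none of the 29 passed between siRNA groups in limma and limma-voom called 2 higher (4.37% of all genes). An unadjusted p under 0.05 was reached by 14, beside 37.1% of all genes. The list median was −0.06, 0.16, −0.11 and 0.10 in the 4 comparisons, beside medians of at most 0.02 for all genes. Its sign flipped for doxorubicin in siNT cells with library totals (0.17) and upper-quartile scaling (0.08), where the medians of all genes were 0.18 and 0.12, and for siMLK4 in vehicle with library totals (0.03, beside 0.11 for all genes).

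The inhibitors were lower in MLK4-depleted cells. Of 20 measured MAP kinase phosphatases, Sprouty proteins and other antagonists, 6 were called in siMLK4 vehicle cells and 5 in siMLK4 doxorubicin cells, all of them lower, where 3.14% and 2.93% of all genes were lower. Limma-voom called 8 and 5 lower (4.1% and 4.25% of all genes), and 12 and 11 had an unadjusted p under 0.05, beside 37% and 37.1% of all genes. DUSP6, the phosphatase of ERK, had 1460 ± 233 normalized reads in siNT and 188 ± 24.8 in siMLK4 vehicle cells (SD, n = 3), and 1180 ± 24.1 and 511 ± 32.7 with doxorubicin. Its fold change for siMLK4 was −2.66 in vehicle (adjusted p = 4.2e-08 in limma) and −1.12 with doxorubicin (adjusted p = 2.5e-05). SPRY4, a feedback inhibitor of receptor signaling, stood at −1.98 and −1.16, and DUSP5, a nuclear ERK phosphatase, stood at −1.59 and −0.90. DUSP6 was the one gene of all 6 lists whose interaction was called (1.53, adjusted p = 0.0016), with the same direction as EGR1. It was lost without siMLK4 doxorubicin replicate 1 (1.57, adjusted p = 0.012) and kept without any 1 of the other 11 libraries. With doxorubicin 3 of the 20 rose and 2 fell in siNT cells, beside 12.1% of all genes higher and 10.6% lower. In siMLK4 cells limma called 6, all of them higher, beside 12.6% of all genes higher and 10.6% lower. Limma-voom called 7 higher and 1 lower there, beside 18.3% and 14.7% of all genes. In siMLK4 cells DUSP6 (1.24), DUSP5 (0.99) and SPRY4 (0.86) were among those that rose. DUSP1, which dephosphorylates JNK and p38, rose with doxorubicin in both, with 192 ± 58.7 normalized reads before and 640 ± 33.3 after the drug in siNT cells, and 130 ± 13.7 and 496 ± 57.9 in siMLK4 cells. JDP2, a repressor of Jun activity, fell in siNT cells (−1.30), and its −0.60 in siMLK4 cells was not called.

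Of 26 other measured leucine zipper genes related to Jun and Fos, doxorubicin raised 5 and lowered 3 in siNT cells, where 22.7% of all genes were called. In siMLK4 cells 7 were called, all of them higher, where 23.2% of all genes were called and 12.6% were higher. ATF5, a stress-induced factor, rose in both (log2 fold change 1.59 and 1.73). DDIT3, which encodes CHOP, was called higher in siMLK4 cells (1.72) but not in siNT cells (0.53). With doxorubicin it had 1630 ± 77.4 normalized reads in siNT and 1770 ± 392 in siMLK4 cells (SD, n = 3). ATF4, the main activator of the integrated stress response, was called lower in siNT cells (−1.48). In siMLK4 cells ATF4 stood at −0.83 (adjusted p = 0.012 in limma) and was not called. No gene of this list was called in the interaction. Between siRNA groups MAFF, a small Maf gene, was lower in siMLK4 cells (−1.53 in vehicle and −0.96 with doxorubicin) and DBP, a clock output gene, was higher (0.95 and 0.94). These were 2 of 26 in each comparison, beside 5.65% and 5.58% of all genes.

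Further immediate early genes rose with the drug more often than they fell, and some were lower in MLK4-depleted cells. Of 37 measured, 16 rose and 2 fell with doxorubicin in siNT cells, and 14 rose and 1 fell in siMLK4 cells, with list medians of 0.47 and 0.52. Among all genes 12.1% and 12.6% were higher and 10.6% were lower in each. CCN2, the connective tissue growth factor gene, rose in both, with 295 ± 61.4 normalized reads in siNT vehicle cells and 1610 ± 108 with the drug, and with 188 ± 46.7 and 1370 ± 63.5 in siMLK4 cells (SD, n = 3). NR4A2, an orphan nuclear receptor, rose from 109 ± 11.5 to 401 ± 15.2 in siNT cells, whereas PHLDA1 fell in both (−1.18 and −1.51 in limma). In siMLK4 vehicle cells 7 of the 37 were called, all of them lower (3.14% of all genes), while limma-voom called 8 lower (4.1%) and 20 had an unadjusted p under 0.05 (37%). PTGS2, which encodes cyclooxygenase 2, was the lowest of them (−2.40, adjusted p = 2e-06), ahead of MAFF and of IER3 (−1.39). With doxorubicin 7 were lower and ZFP36L1, an mRNA decay factor, was higher in siMLK4 cells (0.76), where 2.93% of all genes were lower and 2.66% higher. With library totals as scaling 4 were lower, beside 2.33% of all genes. MYC, at 3430 ± 286 against 1160 ± 214 normalized reads, was the lowest of the 7 (−1.53), and ARC, at 84.6 ± 7.79 against 22.8 ± 11.9, was also lower (−1.04). In vehicle MYC was called lower as well (−1.23), at 3980 ± 546 against 1660 ± 192, while ARC was not called (−0.18).

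Known AP-1 target genes, listed with earlier results of these data known, were lower in siMLK4 cells more often than they were higher. In vehicle 17 of 32 measured targets were called, all of them lower, where 3.14% of all genes were lower, and the list median was −0.81. With doxorubicin 15 were called, again all lower, with a list median of −0.70 and 2.93% of all genes lower. MMP1, the interstitial collagenase, had 3340 ± 182 normalized reads in siNT and 317 ± 50.3 in siMLK4 vehicle cells, and 5520 ± 742 and 1260 ± 401 with doxorubicin (SD, n = 3). Its fold change for siMLK4 was −3.21 in vehicle (adjusted p = 1.3e-07 in limma) and −2.12 with doxorubicin. ITGA2, an integrin subunit for collagen, stood at −2.57 and −2.44. AREG, an EGFR ligand, was 551 ± 309 in siMLK4 and 3670 ± 2020 in siNT vehicle cells (−2.58), and stood at −1.60 with doxorubicin. CXCL8, which encodes interleukin 8, was called lower in both. It was 111 ± 36.1 in siMLK4 and 760 ± 284 in siNT vehicle cells (−2.31), and 378 ± 153 and 1460 ± 94.1 with doxorubicin (−1.88). With library totals as scaling 12 targets were lower in vehicle (2.03% of all genes) and 15 with doxorubicin (2.33%). Of the 8 basal and squamous markers, 3 were lower in siMLK4 vehicle cells (KRT14, KRT6A and SOX9) and 4 with doxorubicin (these and KRT17), with list medians of −0.64 and −0.73. KRT6A is also on the target list. KRT5 went the other way in vehicle, at 32300 ± 1190 against 20900 ± 3210 normalized reads (0.64, adjusted p = 0.0074), short of the fold threshold. Their summed level was 61250 to 62790 normalized reads in siMLK4 vehicle libraries and 25760 to 29380 with doxorubicin, and their part in the target list was not tested. Of the fibroblast markers, COL1A1 was called higher in siMLK4 vehicle cells (0.78, adjusted p = 0.00041 in limma). The 5 luminal markers, none of them called in limma, summed to 4094 to 5367 normalized reads in siMLK4 and 2956 to 3381 in siNT vehicle libraries. The part of these markers was not tested either.

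The same targets split under doxorubicin. In siNT cells 5 rose and 11 fell, and in siMLK4 cells 7 rose and 10 fell, with list medians of −0.43 and −0.25, where 12.1% and 12.6% of all genes were higher and 10.6% were lower in each. In siNT cells the counts were 6 higher and 7 lower with library totals, where 16.7% of all genes were higher and 6.43% lower, and also with upper-quartile scaling, where 14.9% were higher and 7.7% lower. IL6, an inflammatory cytokine gene, rose in both, to 500 ± 44.1 normalized reads in siNT cells, where vehicle had 2.63 ± 1.85, and to 110 ± 55.8 in siMLK4 cells, where vehicle had 1.75 ± 1.64. CCN1, a matricellular protein gene, rose in both (log2 fold change 1.21 and 1.60 in limma). MMP1 was called higher in siMLK4 cells (1.80), and its 0.71 in siNT cells was short of the fold threshold. Among the targets that fell were genes of squamous differentiation, such as TGM1, the keratinocyte transglutaminase (−1.65 and −1.45), and KRT6A (−1.37 and −1.20). VEGFA fell in siNT cells (−1.75) and stood at 0.03 in siMLK4 cells. SPP1 was called lower in siMLK4 cells (−1.58), and its −0.71 in siNT cells was short of the fold threshold. Beside these targets, 4 of the 8 basal and squamous markers fell and SOX9 rose with doxorubicin in each siRNA group. KRT6A is among these 4 markers and is also on the target list. The summed level of the 8 markers was 66920 to 69220 normalized reads in siNT vehicle libraries against 38260 to 42160 with doxorubicin. The part of this shift in the target list was not tested. No AP-1 target was called in the interaction in limma or limma-voom, while 12 had an unadjusted p under 0.05, beside 14.5% of all genes. An adjusted p under 0.05 was reached by HBEGF (1.75, adjusted p = 0.016) and VEGFA (1.78, adjusted p = 0.033), and with the opposite sign by IL6 (−1.72, adjusted p = 0.011) and SPP1 (−0.87, adjusted p = 0.02).

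**Figure D4:**
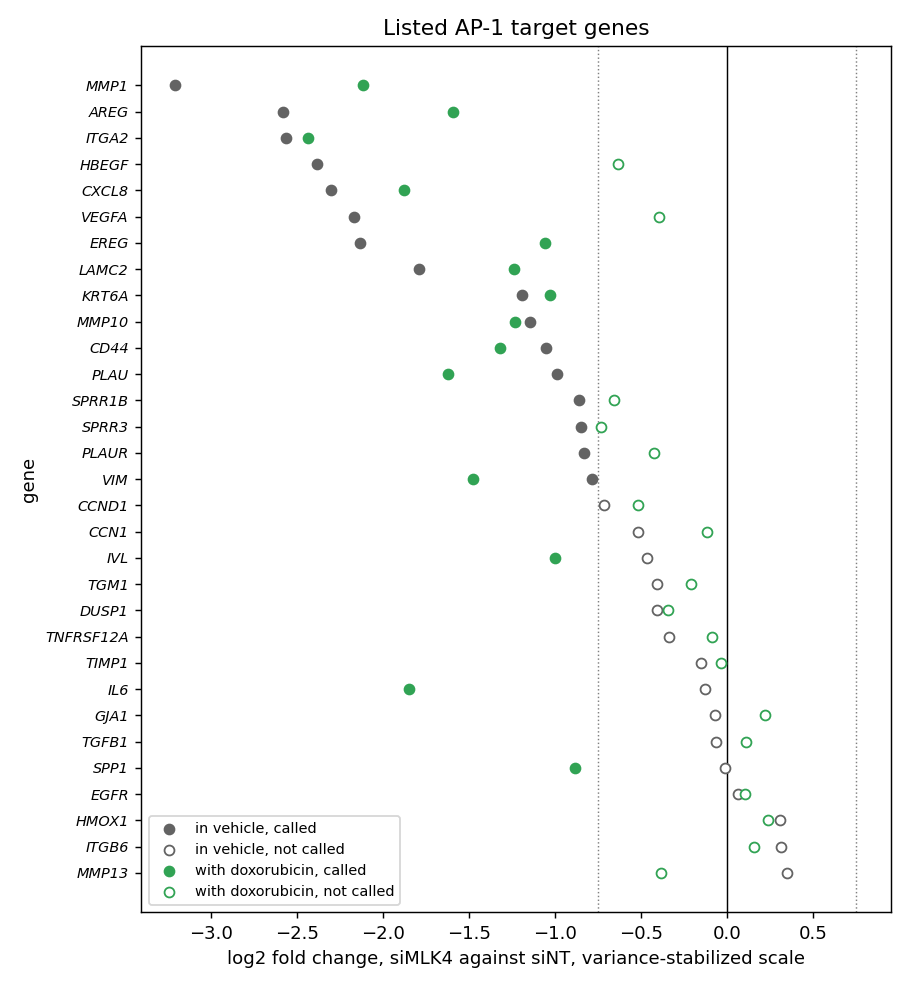
Log2 fold change of siMLK4 against siNT (x axis, variance-stabilized scale) for 31 of the 32 measured AP-1 target genes (y axis), ordered by the value in vehicle. Filled points passed both thresholds and dotted lines mark ±0.75; MMP1, AREG and ITGA2 lead in vehicle at −3.21, −2.58 and −2.57. IL6, SPP1 and IVL were called with doxorubicin but not in vehicle, and HBEGF, VEGFA, PLAUR, SPRR1B and SPRR3 in vehicle but not with doxorubicin, differences that were not called in the interaction.

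EGR1 targets, of which 19 were measured, moved in both directions. In siMLK4 vehicle cells 5 were lower (3.14% of all genes) and TNFSF10, which encodes TRAIL, was higher (log2 fold change 1.00, adjusted p = 0.0028 in limma). HBEGF, an EGFR ligand that is also on the AP-1 list, was the lowest (−2.39), with 429 ± 56.8 against 2610 ± 1050 normalized reads (SD, n = 3), ahead of GADD45A (−1.15) and F3, the tissue factor gene (−1.04). With doxorubicin 3 were called, all of them lower in siMLK4 cells (2.93% of all genes), among them PDGFA (−1.06), a growth factor gene, and PTGES (−0.89), a prostaglandin synthase gene. Doxorubicin raised 4 and lowered 3 in siNT cells and raised 6 and lowered 5 in siMLK4 cells, where 22.7% and 23.2% of all genes were called, and ID1, an inhibitor of differentiation, fell in both (−1.04 and −1.27). The list median was −0.05 and 0.21 for doxorubicin and −0.26 and −0.12 for siMLK4, and the first of these turned to 0.17 with library totals and 0.09 with upper-quartile scaling, beside 0.18 and 0.12 for all genes.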

How the data were processed

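mRNA-seq libraries of HCC1806 cells were analysed from the table deposited by the authors. According to the methods and processing notes, reads were trimmed (Trimmomatic 0.39), mapped (HISAT2), counted per gene on the reverse strand (HTSeq 0.6.0) and transformed (DESeq2 1.26.0) by the authors. The notes name hg19 and the methods GRCh38, and coordinates here come from GENCODE release 44 by Ensembl identifier. The deposited values are log2-like, variance-stabilized reads; inverting the transformation gave whole reads (tolerance 0.05) for all values. Depth was 16759025 to 19302248 reads per library; floors of 3 reads cover counting error only, whereas 95% intervals of fold changes come from the spread between libraries. Limma 3.58.1 in R 4.3.3 (variance trend) fitted 4 group means to all 12 libraries. On data simulated for doxorubicin in siNT cells it called 100% of 200 genes changed by 2 on the log2 scale and 0 of 16813 unchanged genes. This says nothing of smaller changes. The simulated counts were independent, with the same dispersion for every gene and no length deviation between libraries. The 0 false calls therefore give no rate of false calls for the real libraries.

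The 9 genes and the lists were chosen with earlier results of these data known. Genes of lists were named by rule, up to 3 called per direction and comparison; some listed genes are counted but not reported by name here. Alternatives were other scalings, a filter of 10 reads, log2(normalized reads + 1), limma-voom, no variance trend, fewer groups, a looser threshold, a replicate block and leaving out each library. Equally numbered libraries deviated together (r over 0.1 for each pair) between treatments in siNT cells (0.46, 0.11 and 0.20) and between siRNA groups with doxorubicin (0.19, 0.52 and 0.56), but not in the other comparisons. This pairing is read from the values only.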

Additional observations from a re-analysis of the deposited data

Results flagged for a closer look

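The doxorubicin responses of 2 of the 9 genes differed between siNT and siMLK4 cells at an adjusted p under 0.05 of the interaction in limma. EGR1 responded more strongly in siMLK4 cells by 1.10 on the log2 scale (adjusted p = 0.0074), with siMLK4 values of 94.5 ± 4.34 normalized reads in vehicle and 405 ± 44.5 with doxorubicin, against 454 ± 77 and 690 ± 32.2 in siNT cells (SD, n = 3). JUN responded more strongly by 0.78 (adjusted p = 0.036), with 417 ± 44.1 and 1360 ± 82.8 against 872 ± 132 and 1570 ± 48.8, and its adjusted p rose above 0.05 with library totals (0.056) and upper-quartile scaling (0.06) and without any 1 library other than siNT vehicle replicate 3. For both genes the siMLK4 groups were further apart in vehicle than with doxorubicin from the siNT groups. The interaction was the difference of the same 4 groups that gave the other comparisons, so it is not a separate measurement.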

How the results depend on the processing

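The number of the 9 genes called with doxorubicin, 5 in siNT and 5 in siMLK4 cells, and the 4 lower in siMLK4 vehicle cells stayed within 1.5 times of these values under every alternative run (4 to 6, 4 to 5 and 3 to 5). The filter of 10 reads in every library removed FOS from the test. Between siRNA groups with doxorubicin, where 1 gene was called, log2(normalized reads + 1) gave 2, limma-voom 3 and an adjusted p under 0.05 without a fold threshold 3, and leaving out 1 library gave 1 to 2. For the interaction, where 1 was called, upper-quartile scaling gave 0, the looser threshold 2, and leaving out 1 library 0 to 1. After seeing the data, leaving out siNT vehicle replicate 1 with siMLK4 vehicle replicate 3 gave 0, and the length covariate gave 2. MAP3K21 with doxorubicin in siNT cells passed the looser threshold at 0.31.

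Signs changed only for values that were not called. JUNB with doxorubicin in siNT cells was 0.01 with library totals, 0.02 without the 2 vehicle libraries and −0.38 to 0.02 without single libraries. Leaving out single libraries gave −0.07 to 0.20 for JUNB with doxorubicin in siMLK4 cells, −0.45 to 0.14 for JUND in siMLK4 vehicle cells, −0.01 to 0.07 for ATF3 and −0.64 to 0.07 for FOSB between siRNA groups with doxorubicin. In the interaction the ranges were −0.14 to 0.07 for FOSL2 and −0.32 to 0.26 for JUND. The cause was not tested.

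Over all genes, limma-voom called 1483 and 1466 genes between siRNA groups in vehicle and with doxorubicin, against 961 and 950, log2(normalized reads + 1) called 1613 in vehicle, a fit of only the groups compared called 611 in vehicle, and the interaction had 47 calls, 29 with limma-voom, 227 with the length covariate and 0 to 37 without 1 library. Library totals gave a median of all genes of 0.18 and 0.16 for doxorubicin in siNT and siMLK4 cells and of 0.11 for siMLK4 in vehicle, against 0.005, 0.018 and 0.012 with the authors' size factors, and calls with doxorubicin in siNT cells went from 2060 higher and 1799 lower to 2848 and 1094. In siMLK4 cells they went from 2147 and 1802 to 2888 and 1275, in vehicle between siRNA groups from 427 and 534 to 632 and 346, and with doxorubicin from 452 and 498 to 623 and 396. Upper-quartile scaling gave 2539 higher and 1310 lower for doxorubicin in siNT cells and 574 and 401 for siMLK4 in vehicle. The replicate block changed no call of the 9 genes, and the counts of those called with it were 5, 5, 4, 1 and 1. FOS in siMLK4 vehicle cells rests on 6 to 9 reads per library, the lowest counts behind any value of the 9 genes.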
